A study of Mus musculus with 4 samples.

Results

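The cytosolic ribosomal protein genes were taken by symbol from the gene list of the deposited matrices. Members were Rpl and Rps symbols with a number and at most a short suffix, together with Rpsa, Rplp0, Rplp1 and Rplp2, and names with -ps and the Rps6k kinases were left out. This gave 83 members of 32285 genes, 32 of the small and 51 of the large subunit. Of the members, 14 lay on chromosome 7 and 8 on chromosome 17, and the others were spread over the other chromosomes except 19 and Y. The rule used names only and no measured value.

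The data were CITE-seq of LSK cells from mouse fetal liver at E17.5, late in gestation. CITE-seq counts messenger RNA and antibody-linked tags of surface proteins in the same single cells, and LSK cells (Sca1 and c-Kit positive, negative for markers of mature blood cells) hold the haematopoietic stem cells and early progenitors. The KO library came from embryos with Vav-Cre and floxed Bclaf1 alleles, and the WT library from embryos with the floxed alleles and no Cre. Vav-Cre is active in blood and endothelial cells, so the deletion was not restricted to stem cells. Each genotype was 1 pool of 10 embryos, 20000 sorted cells and 10000 loaded cells, read as 1 library with an RNA part and a tag part. The effect of Cre itself and of Bclaf1 loss cannot be told apart in this design.

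The ribosome reads messenger RNA and makes protein. Its small subunit holds the decoding site and its large subunit forms the peptide bonds, and each carries many proteins along with ribosomal RNA. Most of their messages begin with a run of pyrimidines, the 5' terminal oligopyrimidine (TOP) motif, through which mTORC1 and LARP1 control their translation together. Blood stem cells are known for a low rate of protein synthesis, and inherited heterozygous loss of many of these genes in humans causes Diamond-Blackfan anaemia, in which red cell production fails. Free RPL5 and RPL11, bound to 5S ribosomal RNA, hold back MDM2 and so release p53.

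After filtering there were 2676 KO and 5345 WT cells. Unique molecular identifiers (UMIs), 1 per captured RNA molecule, summed over genes to 104358292 in KO and 141419013 in WT. Median depth was 34187.5 UMIs per KO cell and 22734 per WT cell, so KO cells were deeper. Bclaf1 stood at 75.8 UMIs per 1000000 gene UMIs (CPM) in KO and 217.8 CPM in WT, lower in the library labelled KO. The libraries also differed in cell makeup: all 18 markers of G2 or M phase and all 11 measured erythroid markers were higher in KO, and 9 of 11 measured stem cell markers were lower. Markers of B cells, T or NK cells, hepatocytes, macrophages, endothelial and stromal cells summed to between 1.11 and 92.1 CPM per list in KO and between 0.559 and 91.6 CPM in WT. The libraries shared 5 cell barcodes. There were no replicates, so no test was made, and every comparison is between these 2 libraries. Values in brackets are 95% intervals for counting error alone. A level here is a share of a library's RNA, so fewer molecules per cell and more of other RNA cannot be told apart.

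Sequences at the annotated starts of members with low, high or gate-dependent KO over WT ratios are shown because the pyrimidine run is the feature that these messages are known to share. They are 30 bases before to 30 bases from the start, 5' to 3', from the RefSeq promoter table (GRCm38.p6, the assembly of mm10). Capitals mark the longest run of C and T of at least 5 bases that begins with C within 10 bases of the start. Rps18 (chr17:33955636-33955695, minus strand) and Rpl18 (chr7:45718041-45718100, plus strand) were among the 8 members with the lowest ratios. Rpl35 (chr2:39005102-39005161, minus strand), Rpl31 (chr1:39367821-39367880, plus strand) and Rps15 (chr10:80292401-80292460, plus strand) were among the 8 with the highest. Rps27 (chr3:90213619-90213678, minus strand) is the partner of the near copy Rps27l.
Rps18: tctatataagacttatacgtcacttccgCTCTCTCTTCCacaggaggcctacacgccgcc
Rpl18: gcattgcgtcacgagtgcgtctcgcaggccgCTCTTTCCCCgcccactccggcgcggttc
Rpl35: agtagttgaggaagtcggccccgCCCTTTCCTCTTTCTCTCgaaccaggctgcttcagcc
Rpl31: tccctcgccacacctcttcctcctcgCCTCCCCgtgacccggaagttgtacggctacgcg
Rps15: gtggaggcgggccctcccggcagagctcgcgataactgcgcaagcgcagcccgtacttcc
Rps27: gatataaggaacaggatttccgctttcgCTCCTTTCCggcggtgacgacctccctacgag

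Among the sequences shown, runs had 11 bases in Rps18, 10 in Rpl18, 18 in Rpl35 and 7 in Rpl31, and no run met the rule in Rps15. Of the 63 members with an entry in the table, 38 (60.3%) had such a run, against 32.6% of 27025 genes with an entry. A run of at least 8 bases was found in 33.3% of members and 8.44% of all genes. The search used the coding strand and the longest run per start. Of the members with the lowest ratios 2 of 5 with an entry had a run, and of those with the highest ratios 3 of 6. The 2 low-ratio members with a run are the ones shown, and Rpl13, Rplp0 and Rpl11 had none. A match is a description of these letters at annotated starts and no evidence of where transcription began in these cells.

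Ribosomal protein messages made up a smaller share of RNA in the KO library. Of gene UMIs, 34.9% were ribosomal protein UMIs in KO and 37.0% in WT. The log2 ratio of KO over WT was -0.084 (-0.084 to -0.083). Small subunit messages took 15.9% in KO and 16.9% in WT, and large subunit messages 19.0% in KO and 20.1% in WT, so both subunits differed in the same direction. Per cell, the median share was 35.2% in KO, with the middle 50% of cells between 32.7% and 38.0%. In WT the median was 37.4%, with the middle 50% between 34.9% and 40.1%. The distributions overlapped widely. In empty droplets of 100 to 300 UMIs, which hold free RNA, the share was 26.6% in KO and 27.7% in WT. In barcodes of at least 10 and under 100 UMIs it was 36.7% in KO and 30.4% in WT, so the direction in empty droplets depended on their depth.

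Cells with a very low share were few and more frequent in KO. Under 20% ribosomal protein UMIs were found in 30 KO cells (1.12%) and in 10 WT cells (0.187%). Without these cells the summed ratio was -0.080. Nearly every member was read in nearly every cell, with at least 78 of the 80 measured members detected in each cell of either library.

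Levels of single members spanned a wide range. Measured members, those with at least 5 CPM on average, numbered 80, of which 78 were above 1000 CPM. The median member stood at 4337 CPM in KO and 4673 CPM in WT. Among the members of highest level were Rps29, a small subunit protein with 8335 CPM in KO and 9168 CPM in WT, and Rpl32, a large subunit protein with 7655 CPM in KO and 8440 CPM in WT. The lowest measured member was Rpl7l1, a near copy of Rpl7, with 107 CPM in KO and 114 CPM in WT. Each message gives 1 tag at its 3' end, so levels need no division by length.

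Single members were lower in KO in most cases. Of the 80, 65 were lower and 15 higher, while 35.0% of the 9229 measured genes were lower in KO. The median member ratio was -0.086, and the median over all measured genes was 0.067. Members held 34.9% of gene UMIs in KO and 37.0% in WT, so their lower share by itself raises the shares of other genes. The 2 medians and the share of genes lower are therefore not separate reference points. The 57 other genes of at least 1000 CPM had a median of 0.0076, also above that of the members, though they were not matched to the members by level. The small subunit had 26 of 32 measured members lower with a median of -0.092, and the large subunit 39 of 48 with a median of -0.086. Differences of at least 10% were fewer: 16 members were at least 10% lower (all genes, 12.5%) and 4 at least 10% higher (all genes, 33.0%).

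**Figure D1:**
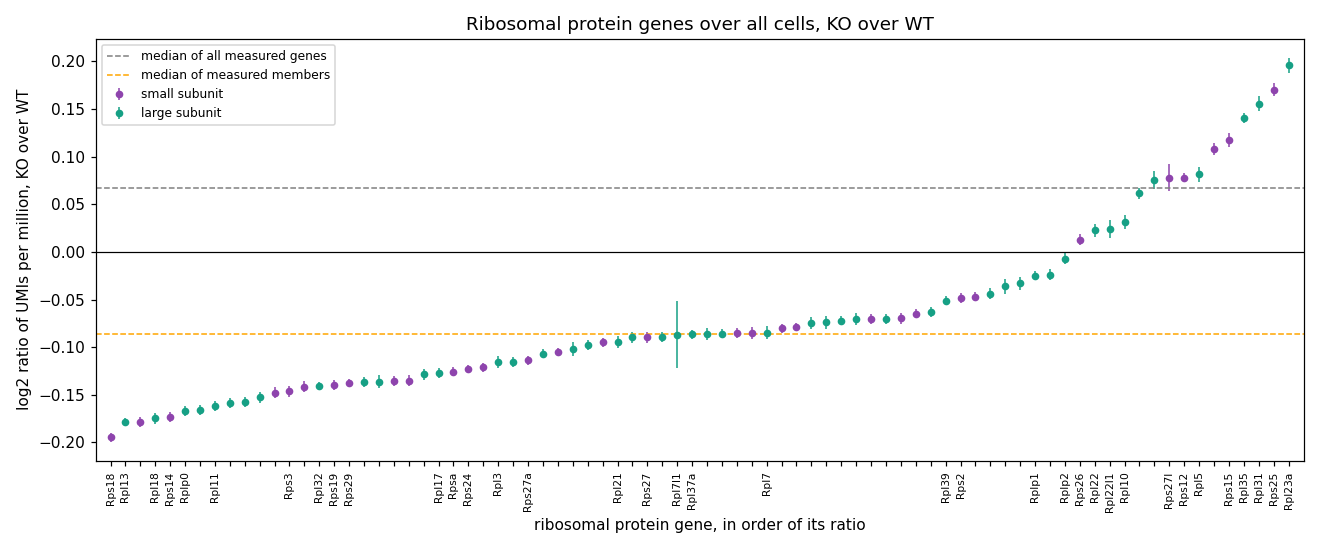
Log2 ratio of CPM, KO over WT, over all cells (y axis) for each of the 80 measured ribosomal protein genes in order of ratio (x axis, with the genes described in the text named), with 95% counting intervals as bars. The ratios run from -0.19 for Rps18 to 0.20 for Rpl23a, with the members' median at -0.086 and the median of all measured genes at 0.067.

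The lowest ratios belonged to proteins of both subunits. Rps18, which sits at the head of the small subunit, had 5835 CPM in KO and 6676 CPM in WT, a log2 ratio of -0.19 (-0.20 to -0.19). Rpl13 had 7434 CPM in KO and 8414 CPM in WT (-0.18). Rpl18, Rps14, Rplp0 and Rpl11 had ratios between -0.17 and -0.16. Rplp0 is the base of the stalk that recruits elongation factors, and Rps14 is the gene whose heterozygous loss contributes to the human 5q- syndrome. These 6 were lower in KO in each of 6 depth bands and in each of 4 bins of cells by G2 or M phase score.

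The highest ratios also came from both subunits. Rpl23a, near the exit of the peptide tunnel, had 2397 CPM in KO and 2093 CPM in WT, a log2 ratio of 0.20 (0.19 to 0.20). Rps25 had 2941 CPM in KO and 2615 CPM in WT (0.17). Rpl31, also beside the tunnel exit, had 2039 CPM in KO and 1831 CPM in WT (0.16). Rpl35 had 4234 CPM in KO and 3842 CPM in WT (0.14), and Rps15, Rpl5 and Rps12 had ratios between 0.12 and 0.078. Rpl23a, Rps25, Rpl31 and Rpl35 were higher in KO in all 6 depth bands, with Rpl35 between 0.098 and 0.18. Rps15, Rpl5 and Rps12 were lower in 1 or 2 of the bands. Rpl5 and Rpl11, which act together on MDM2, lay on opposite sides, at 0.081 for Rpl5 and -0.16 for Rpl11.

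Depth of the cell moved with the ratio. In cells of 8000 to 15000 UMIs the share was 34.5% in KO (179 cells) and 38.4% in WT (987 cells), a log2 ratio of -0.16. In cells of 30000 to 40000 UMIs it was 35.7% in KO (548 cells) and 36.0% in WT (843 cells), a ratio of -0.011. The ratio was below 0 in all 6 bands, and above 40000 UMIs it was -0.073 and -0.060. Over all cells of 20000 to 40000 UMIs the summed ratio was -0.033 and 53 of 80 members were lower. The share of all measured genes lower was not computed for this window, so the count has no reference. The median ratio over all genes was 0.15 at 20000 to 30000 UMIs and 0.090 at 30000 to 40000 UMIs. In 4 bins of each library's own depth, the summed ribosomal protein ratio was -0.11 in the lowest and -0.071 in the highest. How far depth, cell size and genotype each carry the difference was not tested.

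**Figure D2:**
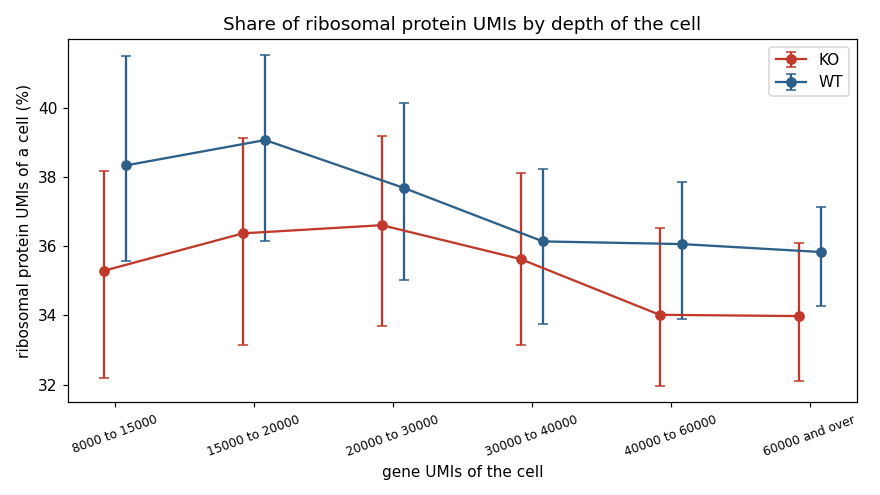
Median share of ribosomal protein UMIs per cell (y axis, %) by gene UMIs of the cell (x axis), KO in red and WT in blue, with bars from the 25th to the 75th percentile of cells. The KO median lies below the WT median in each band, closest at 30000 to 40000 UMIs (35.6% in KO, 36.1% in WT), and the bars overlap in every band.

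Cell cycle position moved with the share itself. Cells of both libraries together were put into 4 bins of equal size by G2 or M phase score. In the lowest bin the share was 36.9% in KO and 39.0% in WT, and in the highest bin 33.3% in KO and 35.1% in WT. Thus the share was lower in G2 or M cells of both libraries, and KO held 30.3% of its cells in the highest bin while WT held 22.3%. Within the bins the KO over WT ratio lay between -0.080 and -0.057. With KO cells weighted to the WT bins the summed ratio was -0.071.

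Surface gates cut from the antibody tags placed cells by CD150 and CD48, which mark stem cells (CD150+CD48-) against later progenitors (CD150-CD48+). The ribosomal protein share was lower in KO in each of the 4 gates. In CD150+CD48- cells it was 33.4% in KO (288 cells) and 35.8% in WT (567 cells), a log2 ratio of -0.10 (-0.10 to -0.10). The ratio was -0.064 in CD150-CD48-, -0.063 in CD150+CD48+ and -0.084 in CD150-CD48+ cells. Within CD150+CD48-, CD201, a marker of stem cells, split the gate into high cells with a ratio of -0.12 and low cells with a ratio of -0.082. Of the 80 members 58 were lower in KO in the CD150+CD48- gate, where 50.4% of all measured genes were.

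The CD150+CD48- gates did not hold the same cells. Cells with erythroid markers were 74 of the 288 KO cells (25.7%) and 22 of the 567 WT cells (3.88%), and in the CD201 high part 44 of 153 KO cells and 0 of 281 WT cells. Stem cell markers summed to 871 CPM in the KO gate and 1381 CPM in the WT gate. G2 or M phase markers summed to 1860 CPM in the KO gate and 1158 CPM in the WT gate. Without the erythroid cells the summed ratio of the gate was -0.10 as before, but single members moved: Rps14 was at -0.20 without them and -0.31 with them, and Rpl23a at 0.17 without them and 0.31 with them.

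Lineage gates were cut from marker genes, and the ratio lay below 0 in each of them, with an interval that included 0 in the mast cell gate. In the erythroid gate the share was 35.3% in KO (360 cells) and 36.9% in WT (289 cells), a log2 ratio of -0.066. The megakaryocyte gate gave -0.12, the granulocyte-monocyte gate -0.11, the lymphoid gate -0.089 and the dendritic gate -0.077, and cells in no lineage gate -0.084. The mast cell gate was nearest to 0, with 33.3% in KO (86 cells) and 33.4% in WT (92 cells), a ratio of -0.0021 (-0.0068 to 0.0027). In the basophil or eosinophil gate, with 16 cells in each library, the ratio was -0.14. Across lineages the share was highest in the lymphoid gate, with 36.1% in KO and 38.4% in WT.

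**Figure D3:**
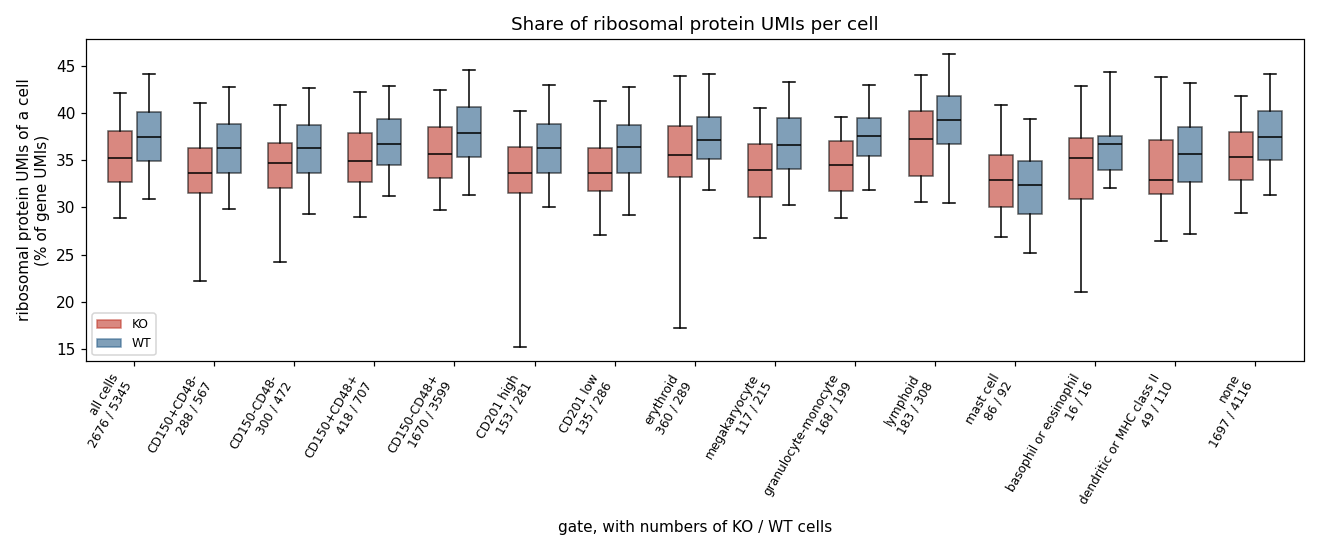
Share of ribosomal protein UMIs per cell (y axis, % of gene UMIs) by gate (x axis, with KO and WT cell numbers), KO in red left of WT in blue. Boxes run from the 25th to the 75th percentile with the median as a line, and whiskers from the 5th to the 95th. The KO median is below the WT median in every gate drawn except the mast cell gate (32.9% in KO, 32.4% in WT), and the boxes of KO and WT overlap in each gate.

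Many members were lower in KO in every gate. Lower in KO in all 11 gates (4 surface gates, 6 lineage gates and the cells in none) were 40 members, and 4.03% of all measured genes were. Higher in all 11 were 7 members, among them Rpl23a, Rps25, Rpl31, Rpl35, Rps15 and Rpl5, and 8.35% of all measured genes were, a share close to that of the members. The gates overlap and share the same 2 libraries, so these are not separate samples. Rpl13 was among the steadiest, with ratios between -0.22 and -0.13 over the gates. Rpl35 was the steadiest of the high members, with ratios between 0.099 and 0.27. Of the 8 members with the highest ratios, Rpl31 reached its highest ratio in the mast cell gate, with 1703 CPM in KO and 1311 CPM in WT (0.38).

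**Figure D4:**
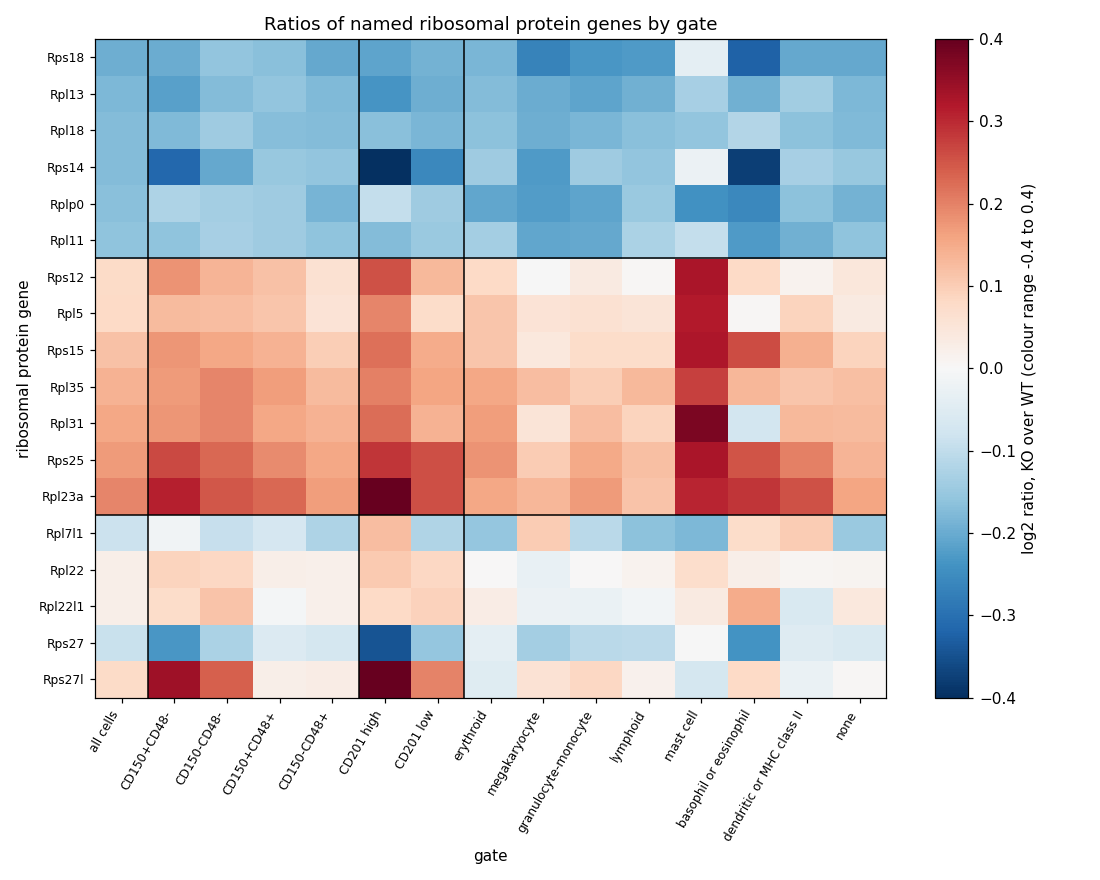
Log2 ratio of CPM, KO over WT (colour, red higher and blue lower in KO, range -0.4 to 0.4 with values beyond it shown at the end colour), for 6 of the 8 lowest, 7 of the 8 highest and 5 near copies or partners (rows) in each gate (columns). The 6 lowest rows are blue in every column, and Rpl23a and Rps25 are red in every column. Rps27l is red in the CD48- columns and near white in most others.

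The CD150+CD48- gate had a lower ribosomal protein share than the CD150-CD48+ gate within each library. In KO it was 33.4% in CD150+CD48- and 35.2% in CD150-CD48+ cells, a log2 ratio of -0.077. In WT it was 35.8% in CD150+CD48- and 37.3% in CD150-CD48+ cells, a ratio of -0.059. Of the 80 members, 68 were lower in the stem cell gate in KO (all genes, 36.6%) and 62 in WT (all genes, 32.9%). In cells of 20000 to 40000 UMIs the ratios were -0.14 in KO and -0.12 in WT.

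Members differed in how they stood in the stem cell gate. Rpsa, also known as the laminin receptor, had 4895 CPM in CD150+CD48- and 5391 CPM in CD150-CD48+ cells of KO, and 4972 and 5937 CPM in the same gates of WT. Its ratios were -0.14 in KO and -0.26 in WT. Rps3, Rpl22 and Rps12 were also among the lowest, between -0.18 and -0.11 in KO and between -0.23 and -0.20 in WT. Without cells of the erythroid gate Rpsa was at -0.26 in KO and -0.27 in WT. Rps3, Rpl22 and Rps12 then lay between -0.32 and -0.21 in KO and between -0.28 and -0.22 in WT. Rpl22 is a known regulator of lymphoid development. By the mean of both libraries, among members above 0 in each, Rpl7l1, Rpl31, Rpl17, Rpl21 and Rpl37a were highest, between 0.0029 and 0.18 in KO and between 0.047 and 0.13 in WT. Outside the erythroid gate Rpl31 was at -0.0064 in KO and 0.024 in WT. Rpl7l1 was there at 0.011 (-0.12 to 0.14) in KO and 0.057 (-0.036 to 0.15) in WT. Rpl17 (0.14 in KO, 0.16 in WT), Rpl21 (0.11 in KO, 0.13 in WT) and Rpl37a (0.077 in KO, 0.099 in WT) stayed above 0.

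The member pattern of the stem cell gate became alike in both libraries once the erythroid cells were set aside. Over the 80 members, Pearson's r between the KO and the WT stem-over-progenitor ratios was 0.16 with all cells of the gates and 0.96 outside the erythroid gate. The median absolute difference between the libraries was 0.073 with all cells and 0.020 without erythroid cells, and 16 and 5 members had opposite signs. These are correlations across genes, which are not independent replicates. None of these values was computed over all measured genes, so whether the members differ from other genes here was not tested. Rps2, on the small subunit, is an example: its ratio was 0.011 in KO and -0.29 in WT with all cells, and -0.34 in KO and -0.39 in WT without erythroid cells. Rpl39 was at -0.23 in KO and -0.058 in WT with all cells, and at -0.053 in KO and -0.022 in WT without them.

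**Figure D5:**
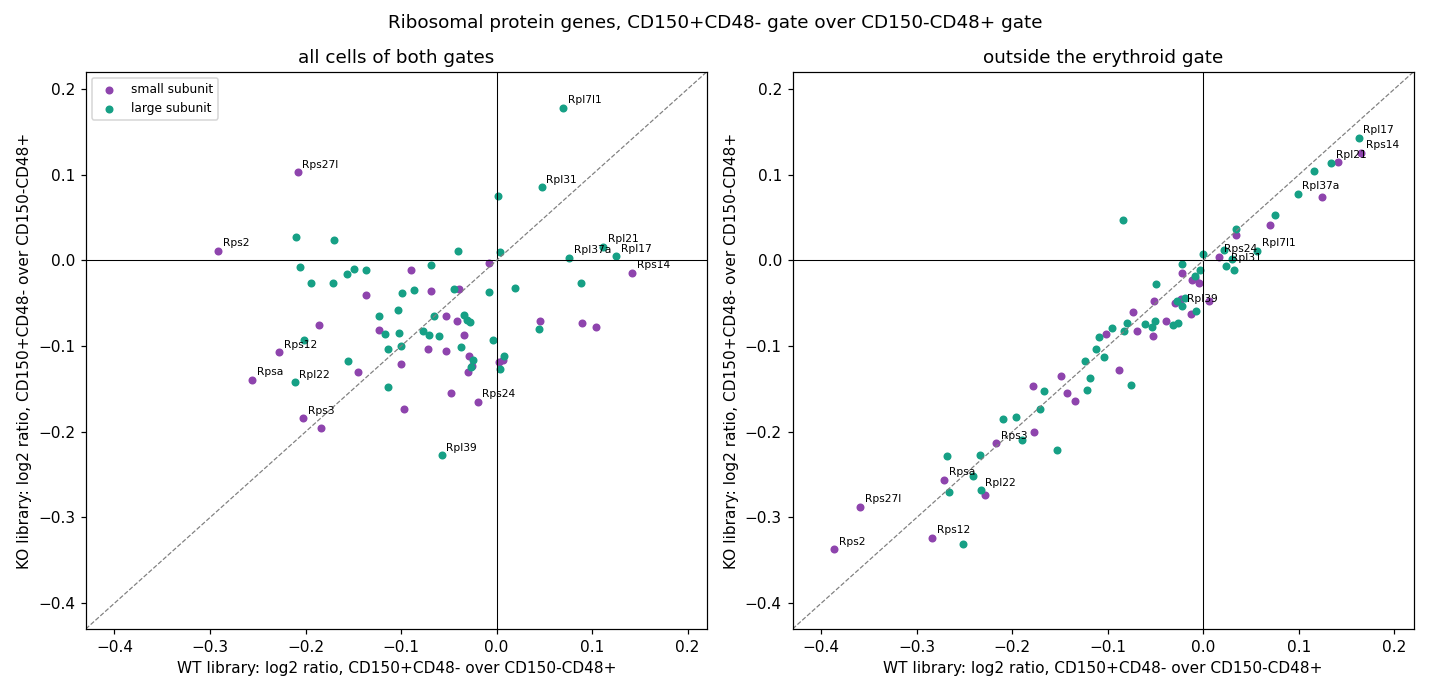
Log2 ratio of CD150+CD48- over CD150-CD48+ cells for 80 ribosomal protein genes, KO library on the y axis and WT library on the x axis, with all cells of the gates (left) and without cells of the erythroid gate (right). Points scatter on the left (r = 0.16) and lie along the dashed line of equal values on the right (r = 0.96).

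Lineages had their own ribosomal protein profiles, and these were alike in both libraries. Relative to cells in no lineage gate, r between KO and WT over the 80 members was 0.99 in the erythroid gate and between 0.89 and 0.96 in the others. Each library was compared with its own cells, so the values share no cells. The same r was not computed over all measured genes. In the erythroid gate Rps27l was highest above the rest (log2 0.52 in KO and 0.58 in WT), and Rps2 followed (0.45 in KO and 0.47 in WT). Rpl39 and Rps24 were lowest there, Rpl39 at -0.33 in both libraries. Rps24 is one of the Diamond-Blackfan genes.

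Rpl10 was among the 4 members highest above cells of no lineage gate in the mast cell, dendritic, granulocyte-monocyte and lymphoid gates. Rpl10, an X-linked gene whose protein joins the large subunit late, had 3671 CPM in the mast cell gate and 2423 CPM in cells of no lineage gate in KO, and 3029 and 2464 CPM in the same gates of WT. Its ratios were 0.60 in KO and 0.30 in WT, the highest of the 80 members there. In dendritic cells Rpl10 was highest too (0.30 in KO and 0.25 in WT). Its ratios were 0.25 in KO and 0.18 in WT in the granulocyte-monocyte gate, and 0.14 in KO and 0.17 in WT in the lymphoid gate. In dendritic cells Rpl5 was among the lowest (-0.29 in KO and -0.34 in WT). Lymphoid cells had high Rps27 (0.15 in KO and 0.19 in WT) and low Rps27l (-0.25 in KO and -0.26 in WT).

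Near copies and their partners were compared in the stem cell gate and over all cells. Rps27l is a p53 target that replaces Rps27 in some ribosomes. In CD201 high CD150+CD48- cells it had 702 CPM in KO and 465 CPM in WT, a log2 ratio of 0.59, while its partner Rps27 had 3932 CPM in KO and 5000 CPM in WT, a ratio of -0.35. The Rps27l ratio was 0.34 in the whole CD150+CD48- gate, 0.24 in CD150-CD48- cells, 0.023 in CD150+CD48+ cells and 0.029 in CD150-CD48+ cells. Rps27l was highest in the erythroid gate, with 892 CPM in KO and 923 CPM in WT, and the KO stem cell gate held more erythroid cells. Outside the erythroid gate the ratio was 0.13 (0.019 to 0.23) for CD201 high cells, with 507 CPM in KO and 465 CPM in WT. Rps27 was there at -0.095. In CD201 high cells of 15000 to 30000 UMIs (92 KO, 107 WT) Rps27l was at 0.076 (-0.053 to 0.20), an interval that included 0. Rps27 was at -0.0064 in those cells. In CD201 high cells of the lowest G2 or M bin Rps27l was at 0.27 (0.12 to 0.42). Cdkn1a, the textbook p53 target, had 15.7 CPM in KO and 6.58 CPM in WT over all cells, a ratio of 1.26 (1.14 to 1.37). In the CD201 high gate, erythroid cells included, Cdkn1a had 37 UMIs in KO and 42 in WT, a ratio of -0.35 (-1.03 to 0.32). These counts are too few to show whether Cdkn1a followed Rps27l there. In CD150-CD48+ cells, with more counts, Cdkn1a was at 1.49 (1.35 to 1.62) and Rps27l at 0.029. In the whole CD150+CD48- gate Cdkn1a was at 0.16 (-0.30 to 0.63) and Rps27l at 0.34, so the 2 genes were highest in different gates of these 2. In the erythroid gate Cdkn1a was low, with 2.35 CPM in KO and 2.60 CPM in WT.

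Rpl22l1, a near copy of Rpl22, had 1573 CPM in KO and 1547 CPM in WT (0.024), and Rpl22 had 2792 CPM in KO and 2749 CPM in WT (0.023). In the CD150+CD48- gate outside the erythroid cells their ratios lay apart, at 0.15 (0.11 to 0.19) for Rpl22l1 and -0.017 (-0.049 to 0.015) for Rpl22. Rpl7l1 was at -0.087 (-0.12 to -0.052). Rpl3l, the muscle form of Rpl3, had 16 UMIs in KO and 19 in WT, and Rpl10l, the germ cell form of Rpl10, had 0 in both, which allows up to 0.029 CPM in KO and 0.021 CPM in WT. Rpl39l, the testis form of Rpl39, had 285 UMIs in KO (2.73 CPM) and 147 in WT (1.04 CPM). Its molecules sat in few cells, with UMIs in 41 KO cells and 38 WT cells and up to 27 in a single KO cell. Reads of near copies and pseudogenes can be shared by the counting, and how far was not tested.

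Some members varied between cells more than others beyond counting noise. The excess coefficient of variation of the share of ribosomal protein UMIs was highest for Rpl7l1 and Rps27l. It was 34.6% in KO and 29.9% in WT for Rpl7l1, and 34.3% in KO and 33.3% in WT for Rps27l. Rps2 followed with 22.1% in KO and 23.3% in WT, while Rpl13 was at 4.49% in KO and 4.84% in WT. Among the 8 members with the highest KO over WT ratio, shares of ribosomal protein UMIs moved together from cell to cell within each library. Their mean pairwise r was 0.22 in 1198 KO cells and 0.31 in 2519 WT cells of 20000 to 40000 UMIs. The 8 members with the lowest ratio had a mean r of 0.0036 in KO and 0.022 in WT, and all pairs of the 78 members above 1000 CPM -0.012 in both. Rps15 and Rpl5 had r = 0.50 in KO and 0.34 in WT, and Rpl35 with Rps15 had r = 0.031 in KO and 0.069 in WT. The shares have a common denominator in each cell, and the values are a description.

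The known disease list and the neighbouring lists of the translation machinery were set beside the members. Of 19 Diamond-Blackfan genes, 14 were lower in KO and 5 higher, with a median of -0.12. Rps29 stood at -0.14, Rps24 at -0.12 and Rps19, the most often mutated in that disease, at -0.14, and Rps26 at 0.013. Elongation factors had a median of -0.031 (4 of 7 measured lower), with Eef1a1 at -0.052. Initiation factors had a median of 0.056 (11 of 34 lower), close to all measured genes (median 0.067, 35.0% lower), with Eif1 at -0.039 and Eif2s2 at 0.18. Other TOP messages had a median of -0.047 (12 of 21 lower), with Tpt1 at -0.078 and Npm1 at 0.081. Mitochondrial ribosomal proteins, which build the ribosome of the organelle, had a median of 0.0020 with 39 of 78 lower.

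Lists of regulators are read against all measured genes, of which 35.0% were lower in KO, and whose median ratio was 0.067. Of 16 genes of mTORC1 and TOP message control 12 were higher in KO with a median of 0.095, while of the 4 with the highest level Cnbp stood at -0.057, Eif4ebp1 at 0.010, Rheb at -0.043 and Tia1 at -0.045. Of 9 snoRNA host genes, whose introns carry guide RNAs for ribosomal RNA, 7 were higher (median 0.15), with Gas5 at -0.0075 and Zfas1 at 0.18. All 5 genes of p53 control were higher (median 0.16), with Mdm2 at 0.16 and Trp53 at 0.033. The G2 or M phase and erythroid markers above moved with these lists too, and their part in the result was not tested.

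Ribosomal proteins under other names were looked at beside the members. Fau, which encodes a ubiquitin-like fusion of the small subunit protein eS30, had 4661 CPM in KO and 5113 CPM in WT (-0.13), and Rack1, on the small subunit head, was at -0.066. Rps27a, the member made as a fusion of ubiquitin and a small subunit protein, had 6185 CPM in KO and 6692 CPM in WT, a ratio of -0.11.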

How the data were processed

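The deposited values are whole-number UMI counts, not normalized, of genes and antibody tags for each barcode, written by Cell Ranger per the file headers. The submitters' processing notes give Cell Ranger 4.0.6, mm10, Seurat and DESeq, with no step tied to the last 2. The members, gene lists and alternatives were chosen with earlier results of these data known.

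Cells were barcodes with at least 9992 UMIs in KO and 8178 in WT (10% of the depth that 99% of the 6000 deepest barcodes do not exceed), 500 genes and at most 10% mitochondrial UMIs. No doublet caller was run, so doublets may remain. Leaving out the 5% of cells with most UMIs served as an alternative. Free RNA, estimated from haemoglobin UMIs of the lymphoid gate against empty droplets, was at most 35.1% in KO and 25.3% in WT.

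Surface gates used centred log ratios of tag UMIs cut at an Otsu threshold per tag and library. Within 0.25 natural log units of the cut lay 9.90% of KO and 6.88% of WT cells for CD150, and 10.2% of KO and 6.60% of WT cells for CD48. More cells lay near the CD201 cut, 91 of 288 KO cells (31.6%) and 112 of 567 WT cells (19.8%) of the CD150+CD48- gate. That cut was at -0.89 in KO and -1.10 in WT, so the CD201 split was the least firm of the tag cuts. Lineage gates took cells whose mean z-score over a marker list was above 0.7, with 194 KO and 329 WT cells within 0.1 of it.

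UMIs were summed per library and gate and given per 1000000 gene UMIs. Ratios carry exact conditional binomial 95% intervals of 2 Poisson counts, tested on simulated counts. Excess variation is the coefficient of variation of a member's share of ribosomal protein UMIs beyond Poisson noise. Named members were the 5 of highest level, the 8 highest and 8 lowest by ratio, the 5 highest and 5 lowest of the stem cell gate, near copies, members under 5 CPM and up to 4 of each list. Rps2, Rpl10, Rpl39 and Rps26 in lineage and stem comparisons were chosen after their values were seen, likewise Rps27a. Some named genes are not reported here. Python 3.11.15 with numpy 2.4.6, scipy 1.17.1 and pandas 2.3.3 was used.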

Additional observations from a re-analysis of the deposited data

Results flagged for a closer look

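Rps27l moved in opposite directions between the stem cell gate and the CD150-CD48+ gate of the 2 libraries. Its log2 ratio of CD150+CD48- over CD150-CD48+ cells was 0.10 (0.066 to 0.14) in KO and -0.21 (-0.25 to -0.17) in WT, a difference of 0.31. With 1 library per genotype the difference was not tested. Outside the erythroid gate the ratios were -0.29 in KO and -0.36 in WT, so both pointed the same way there.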

How the results depend on the processing

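The summed ratio and the member median over all cells stayed below 0 under every setting run, and so did the ratios of the CD150+CD48- gate. Against a sum of -0.084 and a median of -0.086, the pair (sum, median) was -0.15 and -0.15 with median-of-ratios scaling, and -0.13 and -0.13 per UMI outside ribosomal protein, mitochondrial and haemoglobin genes. It was -0.089 and -0.092 with cells weighted equally, -0.086 and -0.090 with a mitochondrial limit of 5%, -0.080 and -0.081 with free RNA subtracted, and -0.082 and -0.084 with KO weighted to the WT gates. In cells of 20000 to 40000 UMIs it was -0.033 and -0.040, with 53 members lower (share over all genes not computed). Settings chosen after seeing the data gave -0.071 and -0.075 with KO weighted to the WT G2 or M bins, -0.063 and -0.070 weighted to its depth bands, -0.080 and -0.083 without cells under 20% ribosomal protein UMIs, and a median of -0.088 without the 5% of cells with most UMIs. The CD150+CD48- gate (KO over WT), its ratio over CD150-CD48+ in KO and that in WT were -0.053, -0.039 and -0.071 with tag shares, and -0.043, -0.14 and -0.12 in cells of 20000 to 40000 UMIs. Per UMI outside those genes they were -0.16, -0.12 and -0.088. Quantile gates gave -0.093 for the gate and -0.067 for the KO ratio, and without erythroid cells, also chosen after seeing the data, the KO ratio was -0.073 and the WT ratio -0.057. The mast cell ratio was -0.016 with a lineage score over 0.5 and 0.010 with one over 1.0, so its sign depends on that limit. Named members whose sign changed were Rpl22 and Rpl22l1 (lower in KO under both other scalings), and, in cells of 20000 to 40000 UMIs, Rps24 (0.020), Rpl17 (0.020), Rpl37a (0.0079) and Rps27l (-0.095). Rps27l was also at -0.0020 with KO weighted to the WT gates and at -0.075 weighted to its depth bands. No paired analysis was possible because each genotype had 1 library. The difference between 2 libraries has no replicate check.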

Other observations

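Of the loci that resemble members but lie outside the name rule, 3 with -ps names and Rps27rt were read at low levels and were lower in KO. Rpl36a-ps1 had 17.7 CPM in KO and 27.4 CPM in WT, a log2 ratio of -0.62 (-0.71 to -0.54). Rpl10-ps3 had 38.1 CPM in KO and 50.4 CPM in WT (-0.40), and Rpl9-ps6 had 62.8 CPM in KO and 82.3 CPM in WT (-0.39). Rps27rt, a near copy of Rps27, had 77.4 CPM in KO and 94.9 CPM in WT (-0.29). The 3 loci with -ps names were chosen after their values were seen, and how reads were divided between them and their parent genes was not tested. Rpl36al, a near copy of Rpl36a, had 1032 CPM in KO and 1011 CPM in WT (0.029), and in the CD150+CD48- gate 1046 CPM in KO and 869 CPM in WT (0.27). Among lineage gates Rpl36al was highest in the erythroid gate, with 1373 CPM in KO and 1382 CPM in WT (-0.0097). The KO CD150+CD48- gate held more erythroid cells (25.7%) than the WT gate (3.88%). In cells of no lineage gate the Rpl36al ratio was -0.093. How far cell makeup carries the ratio of 0.27 was not tested.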
